A study of Mus musculus with 16 samples.

Results

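The genes described here encode the scaffold of the sarcomere and the dystrophin complex of the muscle membrane. They are 36 named genes, looked up by symbol in a table of 16 mouse muscle transcriptomes, and all 36 were present and passed the filter on low values that left 10628 genes for testing. They fall into 6 lists by role, namely 8 genes of the thin filament, 4 of titin and the thick filament, 3 of the M-band, 11 of the Z-disc, 2 of myosin assembly and 8 of the complex at the sarcolemma, the membrane of the myofiber. The question asked was how the RNA of these lists stood in muscle that had lost the ubiquitin ligase UBR4, in young adult and in old mice.

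RNA was taken from tibialis anterior muscles of C57BL6/J mice labelled male, in 4 groups of 4 samples. The study's methods state fewer replicates per group than the 4 in the table, and all 4 were used here. The groups were wild type (WT) and UBR4 muscle-specific knockout (UBR4 mKO), each at 6 and at 24 months of age. By the study's methods every mouse carried 2 floxed UBR4 alleles (UBR4 fl/fl) and was injected with tamoxifen as a young adult, and the UBR4 mKO mice also carried ACTA1-Cre, a Cre recombinase expressed in skeletal myofibers that tamoxifen activates. The WT mice were siblings without Cre, so the groups at each age differ in the transgene as well as in UBR4. The methods give the same age at injection for all mice, so the older UBR4 mKO mice had also lacked UBR4 for longer. Age and time since the loss cannot be told apart in UBR4 mKO or in the change of the genotype difference with age. Cells other than myofibers keep the floxed alleles in this model, and the promoter that drives Cre is that of the gene whose mouse counterpart, Acta1, is among the 36. Levels are given as TPM, transcript abundances scaled to transcript length and to a fixed total, so that genes can be compared within a sample. Nothing in the labels tells how far the 4 samples of a group were handled apart, and p-values measure the spread between them. The depth in reads is unknown, since TPM keeps none.

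The sarcomere is the contractile unit of striated muscle. Thin filaments of actin are anchored in the Z-disc at its borders, thick filaments of myosin are tied together in the M-band at its center, and titin spans from the one to the other. At the surface of the fiber the dystrophin complex links the actin cytoskeleton through the membrane to laminin outside, and mutations in its members cause muscular dystrophies.

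The sequences before the start sites of 5 members are shown first, because Acta1, Actc1, Lmod2 and Actn2 were called higher in UBR4 mKO than in WT at 6 months and lower at 24 than at 6 months in UBR4 mKO, and Myom3 had the second largest difference at 6 months. Lmod3 and Smpx were called in the same 2 directions, but Lmod3 had no entry in the table used and Smpx held 0 matches to the motifs below and is not shown. Each sequence is the 250 bases before the RefSeq transcription start (GRCm38.p6), read 5′ to 3′ on the strand of the gene. By the GENCODE annotation the windows of Actc1, Lmod2 and Actn2 hold 12, 9 and 28 exon bases. The whole Actc1 window lies inside the gene as GENCODE places it. Capitals mark matches on either strand to the E-box CANNTG, the MCAT element CATTCC, the TATA element TATAAA or the CArG box, the site of serum response factor. The windows are chr8:123894776-123895025 (minus strand) for Acta1, chr2:114052876-114053125 (minus) for Actc1, chr6:24597521-24597770 (plus) for Lmod2, chr4:135759465-135759714 (plus) for Myom3 and chr13:12340733-12340982 (minus) for Actn2.
Acta1: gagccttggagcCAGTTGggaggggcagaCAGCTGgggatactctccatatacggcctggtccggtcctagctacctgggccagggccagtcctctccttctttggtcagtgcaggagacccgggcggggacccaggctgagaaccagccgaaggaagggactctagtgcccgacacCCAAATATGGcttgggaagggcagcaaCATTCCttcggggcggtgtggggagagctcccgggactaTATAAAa
Actc1: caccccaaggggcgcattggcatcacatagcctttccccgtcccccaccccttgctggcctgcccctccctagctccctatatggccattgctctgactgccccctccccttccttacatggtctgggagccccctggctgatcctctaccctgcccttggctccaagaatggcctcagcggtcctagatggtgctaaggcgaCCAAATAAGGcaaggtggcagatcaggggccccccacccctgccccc
Lmod2: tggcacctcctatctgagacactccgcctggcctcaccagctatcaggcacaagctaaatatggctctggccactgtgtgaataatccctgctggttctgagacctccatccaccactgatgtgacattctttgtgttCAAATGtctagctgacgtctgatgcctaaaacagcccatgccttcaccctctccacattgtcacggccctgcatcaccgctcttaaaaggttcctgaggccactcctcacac
Myom3: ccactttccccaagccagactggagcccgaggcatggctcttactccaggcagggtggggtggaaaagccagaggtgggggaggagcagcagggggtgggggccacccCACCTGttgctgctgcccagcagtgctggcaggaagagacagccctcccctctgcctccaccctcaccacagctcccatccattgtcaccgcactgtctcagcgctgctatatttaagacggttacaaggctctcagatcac
Actn2: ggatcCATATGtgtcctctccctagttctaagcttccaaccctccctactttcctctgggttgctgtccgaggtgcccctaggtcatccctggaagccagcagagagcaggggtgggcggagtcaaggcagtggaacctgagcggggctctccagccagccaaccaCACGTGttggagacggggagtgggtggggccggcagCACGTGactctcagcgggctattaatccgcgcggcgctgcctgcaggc
Both actin windows hold 1 CArG box, and no 2 matches overlap in any of the 5. Of the 36 genes, 28 had a RefSeq start in the table used, and 5 of these 28 (17.9%) held a CArG box, namely Acta1, Actc1, Myom1, Ldb3 and Dmd, against 1.5% of the 8106 tested genes with an entry. The E-box was found in 75.0% of the members and 61.5% of the tested genes, the MCAT element in 21.4% and 12.8%, and the TATA element in 17.9% and 8.0%. These are matches of letters in a short window and say nothing of binding.

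Several libraries stood apart and are named before the results that rest on them. Xist, the RNA of an inactive X chromosome, was between 0.711 and 23.8 TPM in the 8 libraries of 6-month-old mice and at most 0.0253 TPM in the 8 of 24-month-old mice, although all are labelled male. Replicate 4 of the 6-month UBR4 mKO group had the highest value, and its Y-linked Ddx3y was 0.073 TPM, against 2.29 to 30.5 TPM in the other 15 libraries. The Y-linked Eif2s3y was 1.69 to 9.88 TPM in WT at 6 months and 14.5 to 18.4 TPM in UBR4 mKO replicates 1 to 3. At 24 months it was 9.98 to 14.8 TPM in WT and 17.8 to 23.8 TPM in UBR4 mKO. Kdm5d was 0.134 to 0.711 TPM in WT and 1.23 to 1.93 TPM in those replicates at 6 months. With replicate 4 left out, Xist still stood apart between ages and both these RNAs between genotypes at 6 months. Their part in the differences was not tested. Replicate 4 of the 6-month UBR4 mKO group is left out, together with replicate 3 of the 24-month UBR4 mKO group, wherever values without 2 libraries are given below. That second library was low in long transcripts. Spearman's rho between its deviation from the other 3 libraries of the group and transcript length was -0.675 over 10312 genes and -0.745 over the 36 members, described further below. WT replicates 2 and 4 at 6 months leaned in opposite directions, with rho of 0.468 and -0.523 over the same 10312 genes. Replicates 1 and 4 of the 24-month UBR4 mKO group gave 0.515 and 0.457, each set against a mean that holds replicate 3.

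Ubr4 itself, the targeted gene, was 11.1, 15.7, 13.2 and 9.09 TPM in WT at 6 months and 4.98, 4.92, 5.51 and 6.54 TPM in UBR4 mKO. Its 24-month values were 17.2, 17.0, 17.8 and 21.1 TPM in WT and 10.1, 14.6, 4.28 and 7.63 TPM in UBR4 mKO. The groups did not overlap at either age. Its log2 difference was -1.13 at 6 months (SE 0.26, adjusted p = 0.00365 by limma) and -1.12 at 24 months (SE 0.26, adjusted p = 0.0598), so that at 24 months it missed the threshold, and passed with the median-of-ratios scaling described next (-1.14, adjusted p = 0.0281).

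The scale of the values matters for every count below. TPM are shares of a fixed total, and the 37 mitochondrial genes took 52.6% to 59.7% of it in WT at 6 months, 46.1% to 49.8% in UBR4 mKO at 6 months, 47.8% to 51.7% in WT at 24 months and 46.3% to 49.8% in UBR4 mKO at 24 months. The median gene was higher in UBR4 mKO than in WT at 6 months by 0.33 on the log2 scale, and higher at 24 than at 6 months in WT by 0.26. Counts of members are therefore also given with median-of-ratios scaling, which sets the median gene near 0.

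Markers of other cells also moved with genotype at 6 months. The summed level of 5 leukocyte markers was 1.04 to 1.14 TPM in WT and 3.62 to 16.3 TPM in UBR4 mKO, with Cd3e at or under 0.0365 TPM in all 8 libraries, and that of 5 endothelial markers was 71.3 to 99.1 and 115 to 123 TPM. Of 5 adipocyte markers Fabp4, at 277 to 318 TPM in WT and 387 to 415 TPM in UBR4 mKO, made up nearly all of the sum, and Adipoq, Plin1, Cidec and Lep overlapped. The sum of 5 fibroblast markers, most of it Dcn, overlapped (170 to 289 and 229 to 416 TPM, 3 of 5 called higher), as did the sums of smooth muscle and Schwann cell markers. Pdgfra (1.02 to 1.29 and 1.75 to 2.53 TPM), Col3a1 (8.71 to 17.1 and 21.6 to 46.1 TPM) and Lum (11.3 to 23.2 and 24.4 to 34.1 TPM) did not overlap, each higher in UBR4 mKO, while Col1a1 and Dcn did. The sum of 5 satellite cell markers overlapped (15 to 19 and 17.7 to 23.6 TPM, 1 of 2 tested called higher), with Myod1 the largest part. Pax7 (0.367 to 0.764 and 0.952 to 1.21 TPM), Myf5 (0.448 to 0.777 and 1.18 to 1.36 TPM), Calcr (0.0954 to 0.144 and 0.150 to 0.377 TPM) and Chodl (2.64 to 4.13 and 4.30 to 6.08 TPM) did not, each higher in UBR4 mKO. At 24 months the adipocyte sum, again nearly all Fabp4, was the only sum that did not overlap between genotypes. Between ages in WT the leukocyte sum was higher without overlap (2.52 to 6.00 TPM at 24 months) and Fabp4 lower (208 to 274 TPM), while the means of the other 4 adipocyte markers were higher. The cardiac sum, most of it Myh6, was lower without overlap in the same comparison (1.49 to 2.25 TPM at 6 months and 0.821 to 1.41 TPM at 24 months), while the means of the other 4 cardiac markers were higher. In that comparison 1 of 5 fibroblast markers was called lower and 1 of 4 Schwann cell markers tested was called higher. With age in UBR4 mKO the endothelial sum was lower without overlap (61.3 to 92.7 TPM at 24 months, 3 of 5 called lower), as was Fabp4 (294 to 334 TPM), while the means of the other 4 adipocyte markers were higher. At 24 months in UBR4 mKO Pax7 (0.263 to 0.555 TPM), Myf5 (0.490 to 0.934 TPM), Calcr (0.0234 to 0.0795 TPM) and Chodl (1.91 to 2.24 TPM) lay below their 6-month values without overlap and Myod1 above them (9.08 to 16.3 TPM at 6 months and 17.2 to 22.0 TPM at 24 months). Of the 2 satellite cell markers tested 1 was called higher and 1 lower with age in UBR4 mKO, and 2 of 5 fibroblast markers were called lower. The sum of 5 fiber markers moved as well, from 38091 to 46622 TPM in WT to 47300 to 50039 TPM in UBR4 mKO at 6 months, without overlap and with 2 of 5 called higher, and to 49704 to 56066 TPM in WT at 24 months. With age in WT 3 of the 5 were called higher and 1 lower. The mean of Mb went from 5865 TPM at 6 months to 4829 TPM at 24 months. The part of these cells in the members' values was not tested, and in whole muscle fewer cells of a type and less RNA per cell cannot be told apart. The label of skeletal muscle was borne out by its markers, with summed levels of 5 fiber markers (Ckm, Mb, Pvalb, Myh4 and Atp2a1) of 38091 to 56066 TPM over all libraries, while the cardiac atrial light chain Myl7 was at 0 in 15 of 16 libraries and the sum of 5 cardiac markers was at most 2.66 TPM.

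In WT muscle at 6 months the members spanned a wide range of levels. Acta1, the skeletal alpha-actin of the thin filament, stood first at 22189 ± 1064 TPM (SD, n = 4), followed by the titin cap protein gene Tcap at 4592 ± 462 TPM, Myoz1 at 1858 ± 323 TPM and the fast myosin-binding protein gene Mybpc2 at 1243 ± 186 TPM. The lowest were Dmd at 6.39 ± 1.96 TPM, Utrn at 4.75 ± 0.99 TPM, Myom3 at 2.40 ± 0.65 TPM and Sgcd at 1.83 ± 0.49 TPM. Many neighbours in this order lay within each other's spread, Dmd and Utrn or Myom3 and Sgcd among them. The median member was at 114 TPM in the thin filament list, 493 TPM for titin and the thick filament, 229 TPM in the M-band, 223 TPM in the Z-disc, 123 TPM for myosin assembly and 18.6 TPM at the sarcolemma. The 36 genes together took 3.54% ± 0.20 of all TPM in WT at 6 months, 4.67% ± 0.20 in UBR4 mKO at 6 months, 4.05% ± 0.14 in WT at 24 months and 3.91% ± 0.14 in UBR4 mKO at 24 months (SD, n = 4 each). Their share was higher in every UBR4 mKO library at 6 months (4.50% to 4.90%) than in any WT library of that age (3.32% to 3.79%). Acta1 carries most of this sum. Without it the other 35 genes took 1.32% ± 0.14 in WT and 1.71% ± 0.06 in UBR4 mKO at 6 months, and 1.5% ± 0.06 and 1.55% ± 0.07 at 24 months (SD, n = 4 each), so that the order of the genotypes at 24 months depends on Acta1.

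At 6 months, 26 of the 36 members were called higher in UBR4 mKO than in WT and 0 were called lower (limma, adjusted p under 0.05), and 29 had an unadjusted p under 0.05. Of all genes tested, 43.7% were called higher and 1.15% lower. The groups did not overlap for 23 members, all higher in UBR4 mKO, against 39.0% of all genes. The median member differed by 0.45 on the log2 scale and the median gene by 0.33. With median-of-ratios scaling 8 members were called higher, namely Actc1, Lmod2, Myom2, Myom3, Ldb3, Pdlim3, Flnc and Sgcb, and 1 lower, Capza2, where 6.66% of all genes were called higher and 10.2% lower. The 10 members not called on the TPM scale were Neb, Capza2, Ttn, Capn3, Myom1, Tcap, Sgca, Sgcd, Dag1 and Utrn. Without the 2 libraries 29 members were called higher on the TPM scale, and 13 higher and 4 lower with median-of-ratios scaling. Of the 10628 genes, 4300 were called higher and 208 lower in the first of these fits, and 1103 and 1741 in the second.

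At 24 months, 0 of the 36 were called in either direction by limma, on the TPM scale or with median-of-ratios scaling, and 7 had an unadjusted p under 0.05. The Kruskal-Wallis test with Dunn's test called 0 of all 10628 genes, so its 0 members says nothing of the members. It put 2 members and 427 of all genes at an unadjusted p under 0.05. Array weights called 3 members, where 171 of all genes were called higher and 83 lower. Leaving out 1 sample at a time called 0 or 1 member, where 6 to 44 of all genes were called higher and 2 to 30 lower. Of all genes, 0.433% were called higher and 0.198% lower on the TPM scale, and 0.414% and 0.499% with the other scaling. The median member differed by -0.04 on the log2 scale. The plot of differences at both ages sets the 26 called members at 6 months beside 0 at 24 months.

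**Figure D1:**
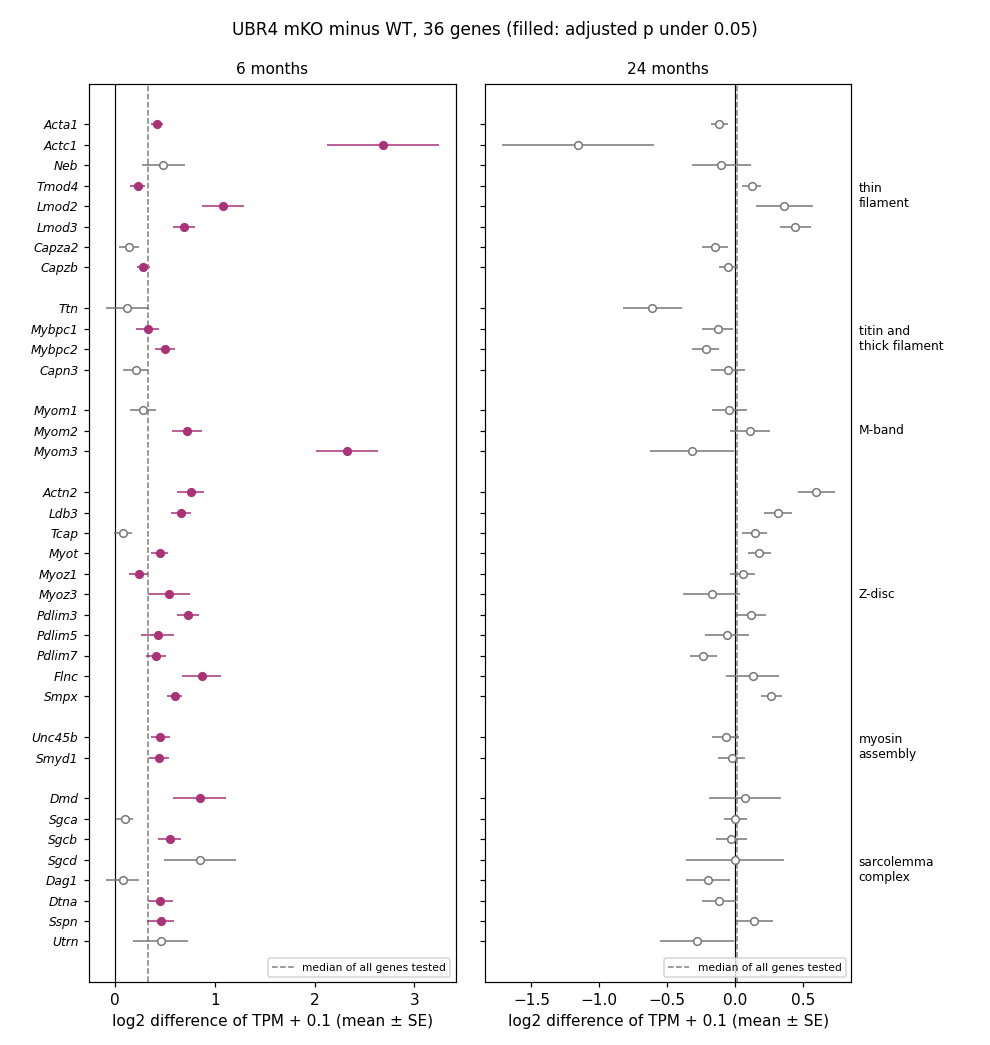
Log2 difference between UBR4 mKO and WT (x axis, TPM + 0.1, ± SE from limma, n = 4 per group) for 36 genes grouped by list (y axis), at 6 months on the left and 24 months on the right with separate x ranges. Filled points have an adjusted p under 0.05, the dashed line is the median of all genes tested, and 26 filled points at 6 months stand against 0 at 24 months.

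With age in WT, 12 members were called higher at 24 than at 6 months and 1 lower, against 24.0% and 1.07% of all genes. The groups did not overlap, with higher values at 24 months, for 14 members and for 24.1% of all genes. The median member differed by 0.30 and the median gene by 0.26 on the log2 scale. The number called in either direction, 13, was 7 without replicate 4 and 21 without replicate 2 of the 6-month WT group. The number over all genes moved as well, from 2555 higher and 114 lower to 894 and 80 without replicate 4. Without replicate 2 it was 4860 higher and 113 lower. With median-of-ratios scaling 4 were called higher (Mybpc2, Myom3, Pdlim3 and Unc45b) and 6 lower (Lmod2, Lmod3, Actn2, Tcap, Myot and Sspn), against 4.44% and 5.33% of all genes.

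With age in UBR4 mKO, 0 members were called higher and 6 lower, against 2.45% and 3.85% of all genes, and the median member differed by -0.21 on the log2 scale where the median gene differed by -0.04. The 6 were Acta1, Actc1, Lmod2, Lmod3, Actn2 and Smpx. With median-of-ratios scaling 6 were lower again, against 5.97% higher and 5.3% lower among all genes, of which Actc1, Lmod2 and Actn2 were shared and Myom3, Smyd1 and Sspn were not.

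The interaction of genotype and age, which asks whether the genotype difference changed between ages, was called for 8 members, all negative, against 0.122% of all genes called positive and 4.58% negative. They were Acta1, Actc1, Mybpc2, Myom3, Pdlim3, Pdlim7, Unc45b and Sgcb. The count was 5 without the 2 libraries and 18 without WT replicate 2 at 6 months, and 5 in each of 9 fits that left out 1 other sample (WT replicates 3 and 4 and any UBR4 mKO replicate at 6 months, WT replicates 1 and 4 and UBR4 mKO replicate 2 at 24 months). Over all genes 487 were called negative with all samples, 317 without the 2 libraries and 2455 without WT replicate 2 at 6 months. In the 9 other fits the number called negative over all genes was 179 to 275. With median-of-ratios scaling only Actc1 and Myom3 were called, against 1.02% of all genes positive and 0.969% negative.

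The thin filament list held the member with the largest difference, Actc1, in every comparison but age in WT. Actc1 encodes the alpha-actin of the heart, also made in developing skeletal muscle. It was 72.2, 76.4, 172 and 87.3 TPM in WT at 6 months and 739, 961, 1380 and 145 TPM in UBR4 mKO. In the 24-month groups it was 175, 61.3, 227 and 79.0 TPM in WT and 49.0, 33.2, 89.9 and 52.6 TPM in UBR4 mKO. At 6 months 3 of 4 UBR4 mKO libraries lay at 739 TPM or more and the groups met only through replicate 4, the library with the high Xist. The log2 difference was 2.69 at 6 months (SE 0.56, adjusted p = 0.00212), -1.16 at 24 months (SE 0.56, adjusted p = 0.511) and -3.54 between ages in UBR4 mKO (SE 0.56, adjusted p = 0.00102), with an interaction of -3.85 (SE 0.79, adjusted p = 0.0139). Without the 2 libraries the difference at 6 months was 3.38 (adjusted p = 4.84e-05). In WT it did not pass the test between ages (0.30, adjusted p = 0.675). The summed cardiac markers given above overlapped between genotypes at both ages.

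Acta1, the abundant skeletal actin, was 21252, 22812, 23366 and 21324 TPM in WT at 6 months and 28132, 28895, 31415 and 30248 TPM in UBR4 mKO. At 24 months it was 25425, 24468, 25610 and 26671 TPM in WT and 23779, 25167, 24465 and 21020 TPM in UBR4 mKO. The 6-month groups stood apart and the 24-month groups overlapped. Its log2 difference was 0.42 at 6 months (SE 0.06, adjusted p = 0.000198) but 0.07 with median-of-ratios scaling (adjusted p = 0.732). Between ages it was 0.20 in WT (adjusted p = 0.0258) and -0.33 in UBR4 mKO (adjusted p = 0.00325), and the interaction was -0.54 (adjusted p = 0.00289). Neither of the last pair passed with median-of-ratios scaling (-0.27, adjusted p = 0.136, and -0.20, adjusted p = 0.519). The call in WT was lost in 4 of the 16 fits that left out 1 sample (WT replicates 1 and 4 at either age) and the value was -0.07 under median-of-ratios scaling. The longest stretch in which the Acta1 and Actc1 transcripts align is 1132 bases at 86.3% identity, and how the counting treated reads that match both is not given in the sources used here.

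The leiomodins Lmod2 and Lmod3 nucleate actin and set the length of thin filaments. Lmod2 was 73.1, 146, 121 and 101 TPM in WT at 6 months and 264, 181, 198 and 275 TPM in UBR4 mKO, groups that did not overlap. Its 24-month values were 70.2, 103, 63.9 and 87.5 TPM in WT and 112, 88.8, 82.3 and 135 TPM in UBR4 mKO, groups that did. The log2 difference was 1.08 at 6 months (SE 0.21, adjusted p = 0.00138), also called with median-of-ratios scaling (0.73, adjusted p = 0.0155), and 0.36 at 24 months (adjusted p = 0.627). In UBR4 mKO it was lower by 1.14 at 24 months (log2 difference -1.14, adjusted p = 0.00321). Lmod3 rose by 0.69 at 6 months (SE 0.11, adjusted p = 0.000389), with WT values of 86.3 to 93.5 TPM and UBR4 mKO values of 131 to 163 TPM, a difference that was 0.34 with median-of-ratios scaling, which missed the threshold (adjusted p = 0.0667). At 24 months the Lmod3 groups did not overlap either (64.3 to 86.4 and 89.0 to 129 TPM), with a difference of 0.44 that missed the threshold (adjusted p = 0.0921). Its fall with age in UBR4 mKO (-0.43, adjusted p = 0.0298) was lost in 5 of the 16 fits that left out 1 sample, those without UBR4 mKO replicates 1, 3 or 4 at 6 months or 2 or 4 at 24 months, and without the 2 libraries together (adjusted p = 0.0662).

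Of the other 4 thin filament genes, Tmod4, Capzb and Capza2 differed by less than the median gene at 6 months. Tmod4, a tropomodulin that caps the pointed end of the filament, and Capzb, a subunit of the capping protein of the barbed end, were called higher in UBR4 mKO at 6 months by 0.22 and 0.28, and stood at -0.13 and -0.07 with median-of-ratios scaling. The Tmod4 call was lost without WT replicate 3 or 4 at 6 months. Capza2, the partner of Capzb, differed by 0.14 on the TPM scale (adjusted p = 0.241) and was called lower by median-of-ratios scaling (-0.22, adjusted p = 0.0345). Neb, the gene of nebulin, the giant ruler along the thin filament, was 215 to 349 TPM in WT and 340 to 432 TPM in UBR4 mKO at 6 months (0.48, adjusted p = 0.076), and was called without the 2 libraries (0.42, adjusted p = 0.0153). With age in WT, Tmod4 (0.31, adjusted p = 0.00764) and Capza2 (0.34, adjusted p = 0.0217) were called higher, the latter lost in 4 of 16 fits (without WT replicate 3 or 4 at 6 months, or 1 or 4 at 24 months). With median-of-ratios scaling they stood at 0.04 and 0.07.

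**Figure D2:**
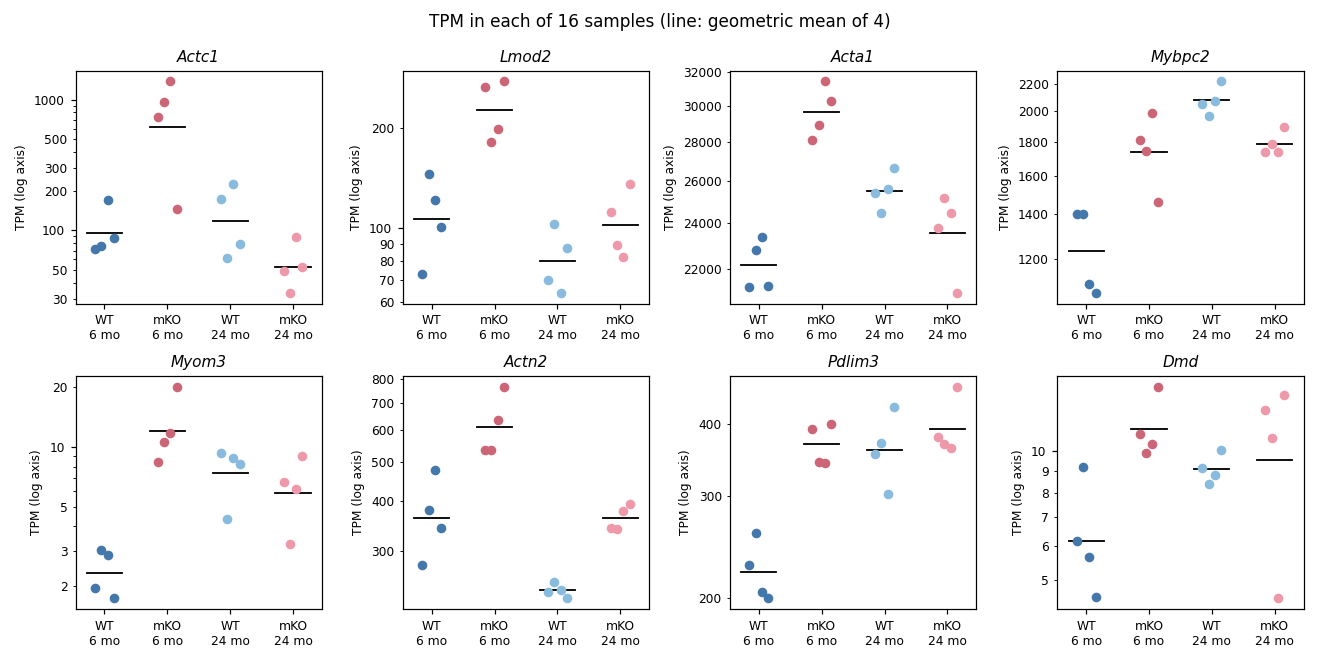
TPM on a log axis (y) in each of the 16 samples for 8 members, with 4 points per group (x) and a line at the geometric mean. Actc1 and Lmod2 are high in the 6-month UBR4 mKO group, with replicate 4 of that group low for Actc1 at 145 TPM, and Actn2 is above WT in every UBR4 mKO library at either age.

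Among titin and the thick filament genes, Mybpc2, the fast-type myosin-binding protein C that lies along the thick filament, had the largest difference at 6 months and with age in WT. It was 1404, 1403, 1098 and 1065 TPM in WT at 6 months and 1810, 1743, 1992 and 1459 TPM in UBR4 mKO. In the 24-month groups it was 2055, 1971, 2075 and 2220 TPM in WT and 1735, 1784, 1739 and 1893 TPM in UBR4 mKO. UBR4 mKO stood above WT without overlap at 6 months and below it without overlap at 24 months. Its log2 difference was 0.50 at 6 months (SE 0.10, adjusted p = 0.00164) but 0.14 with median-of-ratios scaling (adjusted p = 0.393), and -0.22 at 24 months (adjusted p = 0.466). In WT it rose by 0.75 with age (SE 0.10, adjusted p = 0.000126), also with median-of-ratios scaling (0.48, adjusted p = 0.0125), while in UBR4 mKO it differed by 0.04 (adjusted p = 0.891). The interaction was -0.72 (adjusted p = 0.0103), and -0.38 with median-of-ratios scaling (adjusted p = 0.199).

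Its slow-type counterpart Mybpc1 was called higher at 6 months by 0.33 (adjusted p = 0.0322), a call lost in 5 of the 16 fits that left out 1 sample (WT replicates 1, 3 and 4 and UBR4 mKO replicates 3 and 4 at 6 months), and without the 2 libraries (0.22, adjusted p = 0.0566), and it stood at -0.03 with median-of-ratios scaling. Ttn, the gene of titin, was 107 to 173 TPM in WT and 139 to 165 TPM in UBR4 mKO at 6 months, a difference of 0.12 (adjusted p = 0.641). At 24 months Ttn was 162, 137, 180 and 206 TPM in WT and 133, 134, 63.1 and 135 TPM in UBR4 mKO. The 24-month groups did not overlap, with a difference of -0.61 (SE 0.22, adjusted p = 0.294), or -0.34 without the 2 libraries (adjusted p = 0.442). Capn3, a protease bound to titin, was called in none of the 5 comparisons, with differences between -0.26 and 0.23.

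The M-band genes encode the myomesins, which cross-link the thick filaments at the center of the sarcomere. Myom3, the myomesin of slower fibers, was 1.96, 3.05, 2.86 and 1.74 TPM in WT at 6 months and 8.45, 10.6, 11.8 and 20.2 TPM in UBR4 mKO. At 24 months it was 9.36, 4.38, 8.83 and 8.22 TPM in WT and 6.65, 3.26, 6.16 and 9.07 TPM in UBR4 mKO. Every WT library at 6 months lay below every library of the other 3 groups. The log2 difference was 2.32 at 6 months (SE 0.31, adjusted p = 9.51e-05), -0.32 at 24 months (SE 0.31, adjusted p = 0.855) and 1.62 with age in WT (SE 0.31, adjusted p = 0.00255), with an interaction of -2.64 (SE 0.44, adjusted p = 0.00368). All 3 called values kept their call with median-of-ratios scaling, at 1.98, 1.36 and -2.32. In UBR4 mKO it was -1.02 with age (adjusted p = 0.0619), called with median-of-ratios scaling (-0.96, adjusted p = 0.0423).

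Myom2, the myomesin of fast and adult cardiac fibers, was 238, 308, 200 and 172 TPM in WT at 6 months and 359, 341, 400 and 379 TPM in UBR4 mKO. The groups stood apart, with a difference of 0.72 (SE 0.15, adjusted p = 0.00209) that was also called with median-of-ratios scaling (0.37, adjusted p = 0.0197). At 24 months the range was 263 to 304 TPM in WT and 237 to 382 TPM in UBR4 mKO (0.11, adjusted p = 0.919). Myom1, the myomesin common to all striated fibers, was called in none of the 5 comparisons and differed by 0.28 at 6 months (adjusted p = 0.0851), or by 0.25 without the 2 libraries, which passed (adjusted p = 0.0425).

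In the Z-disc list, 10 of 11 genes were called higher in UBR4 mKO at 6 months, and 3 with median-of-ratios scaling, against 43.7% and 6.66% of all genes. Actn2, the gene of alpha-actinin-2, which cross-links actin filaments of neighbouring sarcomeres, was 278, 379, 478 and 342 TPM in WT at 6 months and 536, 535, 634 and 768 TPM in UBR4 mKO. Its 24-month values were 238, 252, 240 and 229 TPM in WT and 343, 341, 376 and 392 TPM in UBR4 mKO. The genotypes stood apart at both ages, and the ages stood apart within each genotype. Its log2 difference was 0.75 at 6 months (SE 0.13, adjusted p = 0.000763) and 0.60 at 24 months (SE 0.13, adjusted p = 0.0532), where the latter missed the threshold with the smallest adjusted p of the 36 at that age. With median-of-ratios scaling neither passed (0.40, adjusted p = 0.0708, and 0.58, adjusted p = 0.0796). It fell with age by 0.60 in WT (adjusted p = 0.00695) and by 0.75 in UBR4 mKO (adjusted p = 0.00259), and both falls were called with median-of-ratios scaling. The interaction was -0.16 (adjusted p = 0.543). Actn2 was the only member called lower with age in both genotypes on the TPM scale, and with median-of-ratios scaling Lmod2 and Sspn were also lower in both.

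Partners of alpha-actinin moved with different sizes. Ldb3, which encodes the PDZ-LIM protein cypher, rose by 0.66 at 6 months (SE 0.10, adjusted p = 0.000252), from 318 to 472 TPM in WT to 551 to 670 TPM in UBR4 mKO, and by 0.30 with median-of-ratios scaling (adjusted p = 0.00857). At 24 months Ldb3 was 393 to 458 TPM in WT and 509 to 575 TPM in UBR4 mKO, without overlap, and its difference of 0.31 missed the threshold (adjusted p = 0.213). Pdlim3, the actinin-associated LIM protein, was 228, 259, 205 and 200 TPM in WT at 6 months and 392, 344, 343 and 399 TPM in UBR4 mKO. In the 24-month groups it was 354, 371, 302 and 427 TPM in WT and 379, 368, 363 and 463 TPM in UBR4 mKO. As with Myom3, WT at 6 months lay below the other 3 groups without overlap. Pdlim3 rose by 0.73 with genotype at 6 months (adjusted p = 0.000242) and by 0.70 with age in WT (adjusted p = 0.000546), and both calls held with median-of-ratios scaling (0.38 and 0.43). Its interaction of -0.62 (adjusted p = 0.0366) was lost without the 2 libraries (adjusted p = 0.083) and in 10 of the 16 fits that left out 1 sample, holding only without WT replicate 2 at 6 months, WT replicate 2 or 3 at 24 months or UBR4 mKO replicate 1, 3 or 4 at 24 months.

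Flnc, the gene of filamin C, an actin cross-linker at the Z-disc and the membrane, was 63.3 to 125 TPM in WT and 136 to 191 TPM in UBR4 mKO at 6 months. It rose by 0.87 (SE 0.20, adjusted p = 0.00328), and by 0.51 with median-of-ratios scaling (adjusted p = 0.0242). Smpx, a small muscle protein gene on the X chromosome, rose by 0.60 (SE 0.08, adjusted p = 6.57e-05), from 157 to 176 TPM in WT to 240 to 260 TPM in UBR4 mKO, and stood at 0.24 with median-of-ratios scaling (adjusted p = 0.0809). Its fall with age in UBR4 mKO was -0.33 (adjusted p = 0.014), lost without UBR4 mKO replicate 3 at 6 months or replicate 2 at 24 months. Myot, the gene of myotilin, was higher by 0.45 and Pdlim7 by 0.41, and they stood at 0.09 and 0.05 with median-of-ratios scaling.

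The calls of 3 Z-disc genes at 6 months lay close to the threshold. Myoz1 (0.23, adjusted p = 0.0477), Myoz3 (0.54, adjusted p = 0.0474) and Pdlim5 (0.42, adjusted p = 0.0423), the first pair being calsarcins that bind calcineurin, lost their calls in 13, 12 and 6 of the 16 fits that left out 1 sample. With median-of-ratios scaling they stood at -0.12, 0.18 and 0.07. Myoz1 kept its call without WT replicate 1 or 2 at 6 months or UBR4 mKO replicate 3 at 24 months, and Myoz3 without WT replicate 2 at 6 months or UBR4 mKO replicate 1, 3 or 4 at 24 months. Pdlim5 lost its call without WT replicate 1, 3 or 4 or UBR4 mKO replicate 3 or 4 at 6 months or WT replicate 1 at 24 months. Tcap, the cap of titin at the Z-disc, was the 1 gene of the list not called at 6 months (0.08, adjusted p = 0.492), at 4298 to 5279 TPM in WT and 4254 to 5579 TPM in UBR4 mKO. With age in WT, Myoz3 rose by 0.81 (adjusted p = 0.0141, lost without WT replicate 4 at 6 months), Myoz1 by 0.38 (adjusted p = 0.00996) and Pdlim7 by 0.34 (adjusted p = 0.0219, lost in 4 of 16 fits, without WT replicate 3 or 4 at 6 months or 1 or 4 at 24 months), and 0 of these 3 passed with median-of-ratios scaling. The interaction of Pdlim7 was -0.64 (adjusted p = 0.0185) and -0.31 with median-of-ratios scaling (adjusted p = 0.3).

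The myosin assembly genes are Unc45b, a chaperone that folds the myosin head, and Smyd1, a methyltransferase that binds myosin in the sarcomere. Unc45b was 73.4 to 102 TPM in WT and 113 to 129 TPM in UBR4 mKO at 6 months, and 121 to 145 and 118 to 136 TPM at 24 months. It rose by 0.45 with genotype at 6 months (adjusted p = 0.00249) and by 0.59 with age in WT (adjusted p = 0.000747), and with median-of-ratios scaling the rise with age alone was called (0.32, adjusted p = 0.0147). The interaction of -0.52 (adjusted p = 0.0401) was lost without the 2 libraries (adjusted p = 0.0802) and in 11 of the 16 fits that left out 1 sample, holding only without WT replicate 1 or 2 at 6 months, WT replicate 2 at 24 months or UBR4 mKO replicate 1 or 3 at 24 months. Smyd1 rose by 0.44 at 6 months (adjusted p = 0.00354), from 136 to 182 TPM in WT to 197 to 228 TPM in UBR4 mKO, and stood at 0.08 with median-of-ratios scaling. Exons of Unc45b share 255 bases with those of Unc45bos on the other strand, and whether the counting used strand is not given in the sources used here.

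**Figure D3:**
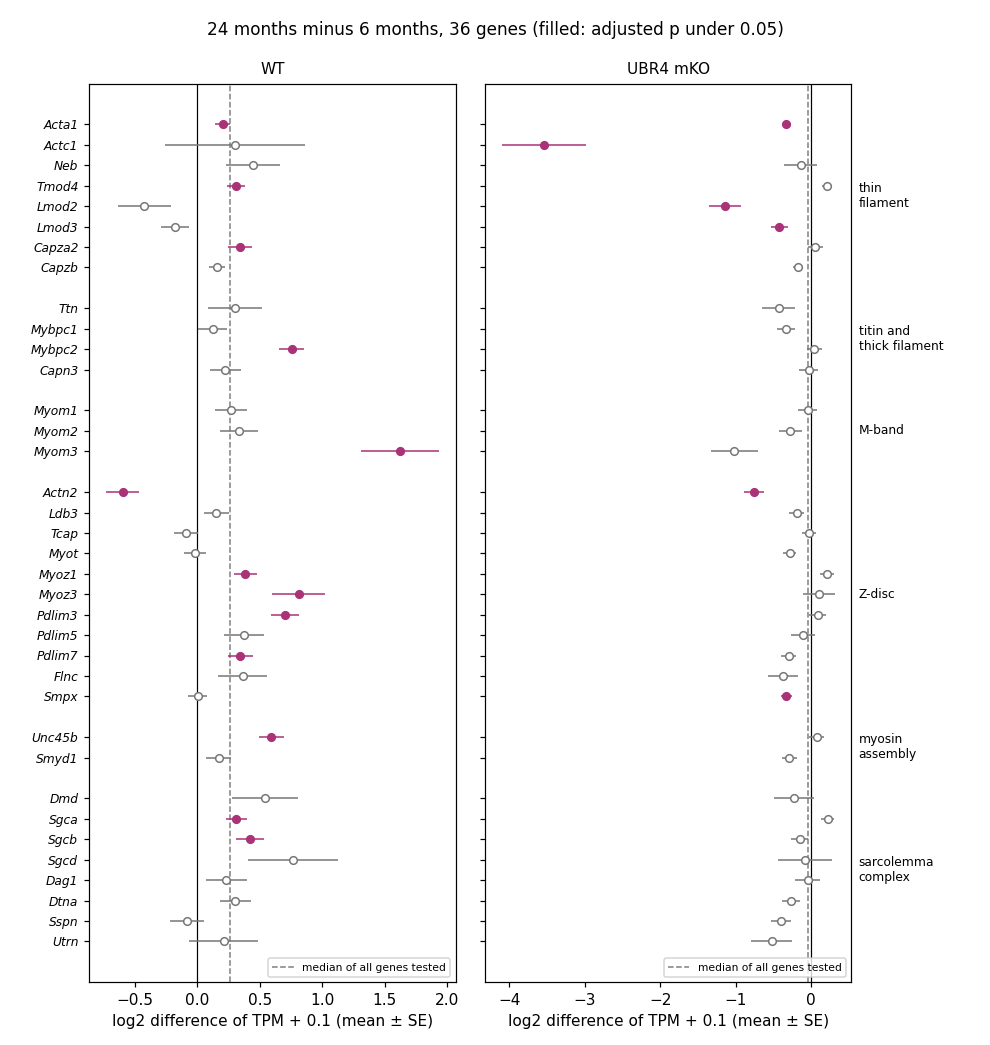
Log2 difference between 24 and 6 months (x axis, TPM + 0.1, ± SE from limma, n = 4 per group) for 36 genes grouped by list (y axis), in WT on the left and UBR4 mKO on the right with separate x ranges. Filled points have an adjusted p under 0.05 and the dashed line is the median of all genes tested; WT has 12 filled points above 0 and 1 below, UBR4 mKO has 6, all below.

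At the sarcolemma 4 of 8 genes were called higher in UBR4 mKO at 6 months, where 43.7% of all genes were. Dmd, the gene of dystrophin, was 6.18, 9.15, 5.66 and 4.58 TPM in WT and 10.95, 9.86, 10.4 and 14.1 TPM in UBR4 mKO. At 24 months it was 9.11, 8.39, 8.78 and 10.1 TPM in WT and 12.4, 10.7, 4.54 and 13.5 TPM in UBR4 mKO. The 6-month groups did not overlap, and at 24 months 3 of 4 UBR4 mKO libraries lay above all WT libraries and replicate 3 below them. The difference at 6 months was 0.85 (SE 0.26, adjusted p = 0.0181), lost without WT replicate 4 or UBR4 mKO replicate 4 at that age, and 0.50 with median-of-ratios scaling (adjusted p = 0.112). Its 24-month values were 0.07 (adjusted p = 0.982), or 0.42 without the 2 libraries (adjusted p = 0.329).

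Utrn encodes utrophin, the autosomal relative of dystrophin. It was 4.63, 5.70, 5.27 and 3.41 TPM in WT and 6.93, 6.31, 5.50 and 7.14 TPM in UBR4 mKO at 6 months, groups that overlapped (0.45, adjusted p = 0.172), and was called without the 2 libraries (0.41, adjusted p = 0.0377). Among the sarcoglycans, which span the membrane beside dystroglycan, Sgcb rose by 0.54 (SE 0.11, adjusted p = 0.00189), from 33.0 to 50.1 TPM in WT to 54.3 to 68.8 TPM in UBR4 mKO, and by 0.19 with median-of-ratios scaling (adjusted p = 0.0351). Sgcd was 1.38 to 2.51 TPM in WT and 2.78 to 3.91 TPM in UBR4 mKO, without overlap, with a difference of 0.85 that missed the threshold (adjusted p = 0.0633) and was called without the 2 libraries (0.77, adjusted p = 0.0089). Sgca differed by 0.09 (adjusted p = 0.355) and Dag1, the gene of dystroglycan, by 0.08 (adjusted p = 0.705). The sarcoglycans thus ranged from 0.09 to 0.85 on the log2 scale in one comparison.

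Dtna, the gene of alpha-dystrobrevin on the inner face of the complex, rose by 0.45 (adjusted p = 0.0094) and Sspn, the gene of sarcospan, by 0.46 (adjusted p = 0.0146, lost without WT replicate 4), and neither passed with median-of-ratios scaling. With age in WT, Sgca (0.31, adjusted p = 0.0176) and Sgcb (0.42, adjusted p = 0.0151) were called higher on the TPM scale. The Sgca call was lost without WT replicate 3 or 4 at 6 months or 4 at 24 months and the Sgcb call without WT replicate 4 at 6 months, and neither passed with median-of-ratios scaling, where Sspn was called lower (-0.36, adjusted p = 0.0448). With age in UBR4 mKO 0 of the 8 were called by limma on the TPM scale, with 3 at an unadjusted p under 0.05, and Sspn was called with median-of-ratios scaling (-0.34, adjusted p = 0.0481). The interaction was called for Sgcb (-0.57, adjusted p = 0.047), a call lost without the 2 libraries (adjusted p = 0.114) and in 13 of the 16 fits, holding only without WT replicate 2 at 6 months or UBR4 mKO replicate 1 or 4 at 24 months.

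Set side by side at 6 months, the median difference on the log2 scale was 0.45 for 8 thin filament genes, 0.26 for 4 titin and thick filament genes, 0.72 for 3 M-band genes, 0.54 for 11 Z-disc genes, 0.44 for 2 myosin assembly genes and 0.46 for 8 sarcolemma genes, where the median gene differed by 0.33. With median-of-ratios scaling these medians were 0.10, -0.09, 0.37, 0.18, 0.09 and 0.11. The counts called higher were 6 of 8, 2 of 4, 2 of 3, 10 of 11, 2 of 2 and 4 of 8, against 43.7% of all genes, and 2, 0, 2, 3, 0 and 1 with the other scaling, against 6.66%. At 24 months the medians were -0.08, -0.17, -0.04, 0.13, -0.05 and -0.02. The lists were not tested against each other.

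Ratios within a sample do not depend on the scale of that sample, so 7 pairs of related members were compared as log2 ratios of TPM with an exact two-sided permutation test, whose smallest p for 4 against 4 is 0.0286. Over the 28 comparisons the groups did not overlap in 10, and no p passed the threshold after adjustment over the 7 ratios of a comparison, which the design can reach only if 5 or more of the 7 stand apart. Myom2 to Myom1 was 0.643, 0.696, 0.563 and 0.555 in WT at 6 months and 0.825, 0.805, 0.898 and 0.801 in UBR4 mKO, a log2 difference of 0.44 (exact permutation p = 0.0286, adjusted p = 0.0667). In the 24-month groups it was 0.654, 0.595, 0.650 and 0.654 in WT and 0.666, 0.666, 0.770 and 0.736 in UBR4 mKO, a log2 difference of 0.15 (exact permutation p = 0.0286, adjusted p = 0.1). This ratio was thus higher in UBR4 mKO in every library at both ages, and it was lower at 24 than at 6 months in UBR4 mKO by 0.23 (log2 difference -0.23, exact permutation p = 0.0286, adjusted p = 0.0799).

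Myom3 to Myom1 stood apart at 6 months between genotypes (2.10) and between ages in WT (1.39), both with an exact permutation p = 0.0286 and an adjusted p = 0.0667. Mybpc1 to Mybpc2, slow to fast type, was 0.570 to 0.780 in WT at 6 months and 0.389 to 0.478 at 24 months, a log2 difference of -0.63 (exact permutation p = 0.0286, adjusted p = 0.0667). At 6 months it was 0.508 to 0.544 in 3 UBR4 mKO libraries and 0.901 in replicate 4, so that the genotypes overlapped (-0.17, exact permutation p = 0.429) but not without that library (-0.36). Utrn to Dmd was lower in UBR4 mKO at 24 months without overlap, at 0.535 to 0.647 in WT and 0.410 to 0.523 in UBR4 mKO (log2 difference -0.36, exact permutation p = 0.0286, adjusted p = 0.1), and at 6 months the groups overlapped (-0.39, exact permutation p = 0.0857).

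Actc1 to Acta1 was at most 0.00886 in 13 of the 16 libraries and between 0.0263 and 0.0439 in the other 3, which were UBR4 mKO replicates 1 to 3 at 6 months. Between ages in UBR4 mKO it stood apart (-3.21, exact permutation p = 0.0286, adjusted p = 0.0799). Myoz3 to Myoz1 stood apart at 6 months between genotypes (0.30) and with age in WT (0.43), both with an exact permutation p = 0.0286. Lmod2 to Lmod3 overlapped in all 4 comparisons.

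**Figure D4:**
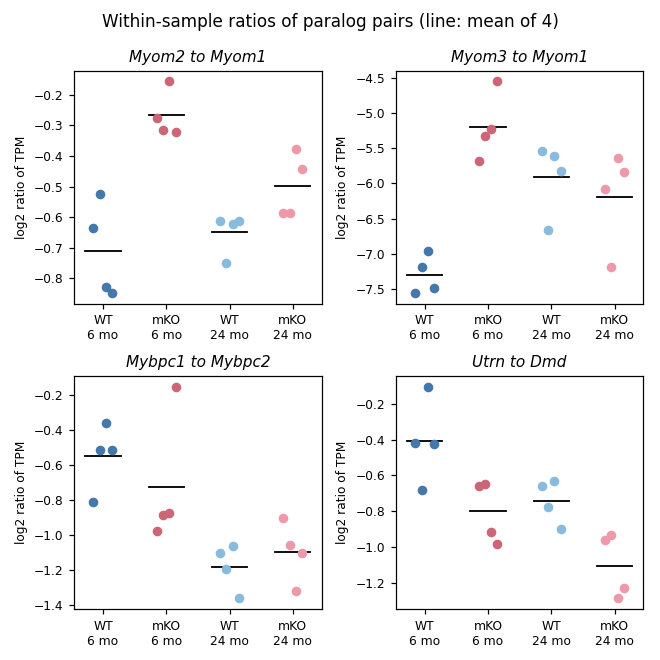
Log2 ratio of TPM (y) of 4 pairs of related genes in each of the 16 samples, with 4 points per group (x) and a line at the mean. Myom2 to Myom1 is higher in UBR4 mKO than in WT at both ages, with a log2 difference of 0.44 at 6 months and 0.15 at 24 months, and Mybpc1 to Mybpc2 is lower at 24 than at 6 months in WT.

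The low values of replicate 3 in the 24-month UBR4 mKO group followed transcript length and touch several members above. Against the mean of the other 3 libraries it was lower by 1.09 for Ttn (log2 deviation -1.09), -1.23 for Neb, -1.40 for Dmd, -1.62 for Utrn and -0.59 for Flnc, the 5 members with transcripts of 9000 bases or more. Over these 5 the median deviation was -1.23, and over the 11 members under 2000 bases it was 0.14. Sgcd, with a longest annotated transcript of 2450 bases, was lower still at -2.09, and Actc1 stood higher at 1.03. The corresponding medians in WT replicate 4 at 6 months were -0.57 for the long and -0.11 for the short members, and in WT replicate 2 they were 0.50 and 0.16. Over the 36 members rho was -0.811 in WT replicate 4 and 0.651 in WT replicate 2, so that the trend with length was not particular to 1 library. The part of transcript length in the differences between groups was not tested.

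**Figure D5:**
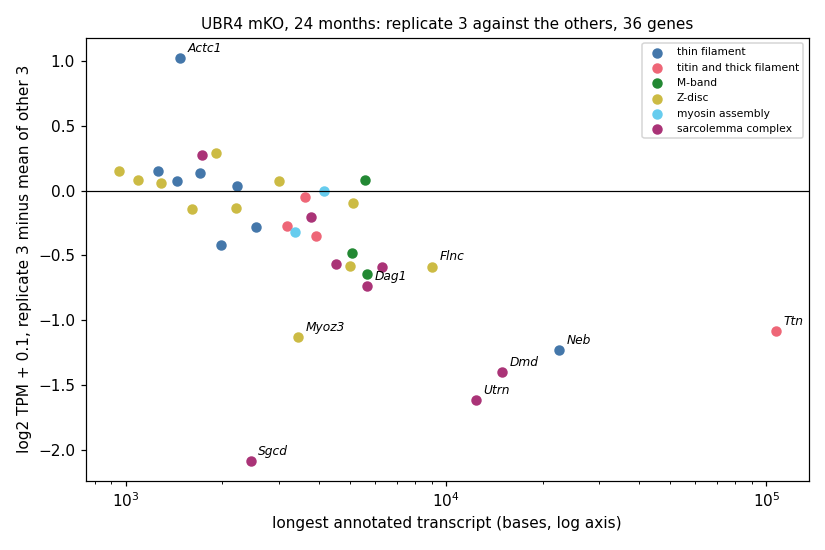
Log2 deviation of replicate 3 from the mean of the other 3 UBR4 mKO libraries at 24 months (y, TPM + 0.1) against the longest annotated transcript in bases (x, log axis) for 36 genes, colored by list. The deviation is near 0 or above it for most short transcripts and -1.09 to -1.62 for Ttn, Neb, Dmd and Utrn.

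Other genes of the same structures were counted from a list of 58, of which 56 were tested. At 6 months 30 of the 56 were called higher in UBR4 mKO and 0 lower, against 43.7% and 1.15% of all genes, and with median-of-ratios scaling 12 higher and 5 lower, against 6.66% and 10.2%. The largest rises were of Mybph (1.98, adjusted p = 0.000274), a myosin-binding protein H, Ankrd2 (1.45, adjusted p = 0.000252), an ankyrin repeat protein that responds to stretch, and Tnni1 (1.44, adjusted p = 0.000381), the slow troponin I, all 3 also called with median-of-ratios scaling. Mybph was 14.1 to 31.4 TPM in WT and 70.2 to 84.6 TPM in UBR4 mKO at 6 months, and 7.15 to 14.4 and 5.50 to 17.7 TPM at 24 months.

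At 24 months 2 of the 56 were called, both higher, against 0.433% of all genes higher and 0.198% lower. They were Fhl1 (1.10, SE 0.19, adjusted p = 0.0208) and Fhl3 (0.78, SE 0.12, adjusted p = 0.0127), genes of LIM-domain proteins of muscle. Fhl1 was 377, 352, 331 and 332 TPM in WT and 741, 692, 580 and 1039 TPM in UBR4 mKO at 24 months. At 6 months it was 565 to 1017 TPM in WT and 1538 to 2374 TPM in UBR4 mKO (1.19, adjusted p = 0.000333). The Fhl1 call at 24 months was lost without WT replicate 3 or 4 or UBR4 mKO replicate 4 of that age and the Fhl3 call without WT replicate 3, and both passed with median-of-ratios scaling.

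With age in WT 17 of the 56 were called higher and 6 lower, against 24.0% and 1.07% of all genes, and with median-of-ratios scaling 3 higher (Tmod1, Capza1 and Dysf) and 9 lower, against 4.44% and 5.33%. The largest falls were of Csrp3 (-2.14, adjusted p = 0.00083), the muscle LIM protein, Myl2 (-1.84, adjusted p = 0.0134), the slow regulatory light chain, and Myoz2 (-1.71, adjusted p = 0.000291), the calsarcin of slow fibers, and the largest rises of Trim63 (1.03, adjusted p = 0.0119), Xirp1 (0.84, adjusted p = 0.0311) and Capza1 (0.78, adjusted p = 0.000608). The call of Trim63 was lost without WT replicate 4 at 6 months and that of Xirp1 in 5 of the 16 fits (WT replicates 1, 3 and 4 at 6 months, 2 and 4 at 24 months). With age in UBR4 mKO 4 were higher and 10 lower, against 2.45% and 3.85% of all genes (4 and 12 with median-of-ratios scaling, against 5.97% and 5.3%), the largest falls being of Mybph (-2.99, adjusted p = 2.85e-05), Csrp3 (-2.76, adjusted p = 0.000186) and Ankrd2 (-1.96, adjusted p = 5.2e-05). The rises were of Trim54 (0.47), Fhl3 (0.43), Tnni2 (0.27) and Tnnt3 (0.27), of which Fhl3 was lost in 13 of the 16 fits that left out 1 sample (all but those without WT replicates 2 and 3 at 6 months and UBR4 mKO replicate 3 at 24 months), Tnni2 without UBR4 mKO replicate 1 at 6 months and Tnnt3 without replicate 1 or 3 of that group. The interaction was called for 12, all negative, against 4.58% of all genes negative and 0.122% positive, with Mybph (-2.20, adjusted p = 0.01), Xirp1 (-1.53, adjusted p = 0.0307) and Tnni1 (-1.46, adjusted p = 0.021) the largest. Of the 8 members and 12 other genes with a called interaction, Actc1 and Myom3 among the members and Mybph and Dysf, the gene of the membrane repair protein dysferlin, among the others were called again with median-of-ratios scaling, which also called Fhl3, with a positive sign, against 0.969% of all genes negative and 1.02% positive. The call of Dysf on the TPM scale was lost in 10 of the 16 fits, that of Xirp1 in 7 and that of Tnni1 without WT replicate 4 at 24 months.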

How the data were processed

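RNA-seq of tibialis anterior muscle was analysed in 16 samples, 4 in each of 4 groups taken from the labels. Per the study's methods, the authors trimmed and filtered the reads, aligned them to the mouse genome (mm10 in the submitters' processing notes) and deposited gene levels as TPM from CLC Genomics Workbench. TPM keep no read depth, so no counting interval can be given. The handling of strand and of reads matching several genes is not given in the sources used here.

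The 10628 of 47643 genes with a mean of at least 1 TPM were tested with limma 3.58.1 (R 4.3.3) on log2(TPM + 0.1), with 1 coefficient per group, a mean-variance trend and Benjamini-Hochberg adjustment over all genes at 0.05. Differences are on that log2 scale, which understates those of low genes. The authors' methods name a Kruskal-Wallis test with Dunn's test, which was run as an alternative. The other alternatives were TPM + 1, no filter, median-of-ratios scaling, removal of mitochondrial genes, array weights, a replicate block, fits of 2 groups and leaving out each sample. Leaving out 2 libraries together was chosen after seeing the data. Pairs of members were compared as log2 ratios by exact permutation. The limma code was tested on simulated data.

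The members and lists were chosen with earlier results of these data known. Full statistics were set for the called members with the largest difference in a list, those called at both ages and those called under 1 scaling and in the other direction under another. Further members are given to the same depth where groups stood apart or a ratio used them. Of the further pathway genes, the 3 with the largest called differences in each direction and comparison are named. Transcript lengths, overlaps and copies came from GENCODE (GRCm38) with blastn 2.17.0, and promoters from RefSeq (GRCm38.p6). Pairs of libraries correlated at 0.965 to 0.993 within groups, and 0 pairs were identical.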

Additional observations from a re-analysis of the deposited data

Results flagged for a closer look

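In 7 of 144 sets of 4 values (36 members in 4 groups) 1 sample stood far from the other 3 by Dixon's criterion, where chance gives about 1 in 20, or 7.2. Actc1 was 171.5 TPM in WT replicate 3 at 6 months, against 72.2 to 87.3 TPM in the others, and Tcap was 5279 TPM in WT replicate 2 at 6 months, against 4298 to 4450 TPM. Tmod4 was 311 TPM in UBR4 mKO replicate 1 at 6 months, against 329.3 to 331.2 TPM, and Lmod3 was 64.27 TPM in WT replicate 2 at 24 months, against 83.5 to 86.4 TPM. In UBR4 mKO at 24 months Ttn was 63.09 TPM in replicate 3, against 133 to 135 TPM, and Sgca was 169.1 TPM in the same library, against 138 to 140.7 TPM. Pdlim3 was 463.3 TPM in replicate 4 of that group, against 363 to 378.5 TPM.

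The genotype difference changed between ages for 8 members, by limma's test of the interaction. The log2 values were -3.845 for Actc1, -2.643 for Myom3, -0.7159 for Mybpc2, -0.6426 for Pdlim7, -0.6157 for Pdlim3, -0.5724 for Sgcb, -0.5356 for Acta1 and -0.5233 for Unc45b, where the median gene stood at -0.31. With median-of-ratios scaling Actc1 and Myom3 were called.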

How the results depend on the processing

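Median-of-ratios scaling kept 18 of 53 member calls over the 5 comparisons, and TPM + 1 kept all 53. The number of members called in either direction at 6 months was 26 on the TPM scale. There median-of-ratios scaling gave 9 (1 of them lower), removal of mitochondrial genes 11, the Kruskal-Wallis test with Dunn's test 12, and median-of-ratios scaling without the 2 libraries 17 (4 of them lower). Over all genes these fits called, in that order, 708 higher and 1082 lower, 963 and 623, 2457 and 28, and 1103 and 1741. On the TPM scale 4645 genes were called higher and 122 lower. At 24 months (0) array weights gave 3, the fit of only the 2 groups 1, and median-of-ratios scaling without the 2 libraries 1. Over all genes these fits called, in that order, 171 higher and 83 lower, 8 and 0, and 50 and 80. With age in WT (13) removal of mitochondrial genes gave 7, array weights 28, Dunn's test 0 (12 at an unadjusted p under 0.05) and the fit without the 2 libraries 20. Over all genes these fits called, in that order, 618 higher and 433 lower, 6266 and 265, 0 and 0, and 4064 and 196. On the TPM scale 2555 genes were called higher and 114 lower. With age in UBR4 mKO (6) removal of mitochondrial genes gave 11 and Dunn's test 0 (8 at an unadjusted p under 0.05). Over all genes the first called 479 higher and 505 lower and Dunn's test 0, against 260 and 409 on the TPM scale. For the interaction (8) no filter gave 4, median-of-ratios scaling 2, removal of mitochondrial genes 3, array weights 18, the 2 libraries left out 5, and median-of-ratios scaling with these left out 4. Over all genes no filter gave 11 positive and 288 negative, median-of-ratios scaling 108 and 103, and removal of mitochondrial genes 83 and 131. Array weights gave 141 and 2720, the 2 libraries left out 18 and 317, and median-of-ratios scaling with these left out 272 and 218. Leaving out 1 sample gave 19 to 30, 0 to 1, 7 to 21, 4 to 7 and 5 to 18 in these 5 comparisons. In the same fits the number called higher over all genes ran from 2626 to 6141 at 6 months and from 894 to 4860 with age in WT. The number with a negative interaction ran from 179 to 2455.

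Signs turned at 6 months for Tmod4 (-0.1306 with median-of-ratios scaling, -0.03236 without mitochondrial genes, -0.1045 with median-of-ratios scaling and the 2 libraries left out), Capzb (-0.07347 and -0.0517 under the first and last), Mybpc1 (-0.02859 and -0.1012) and Myoz1 (-0.1189, -0.02064 and -0.05284), and with age in WT for Acta1 (-0.07111 with median-of-ratios scaling, with and without the 2 libraries). The cause was not tested. With a replicate block the counts were 25, 0, 13, 6 and 6. Same-numbered samples correlated at -0.155 to 0.181, so the numbers were not taken to pair samples. The count of ratios whose groups stood apart was 10 with TPM + 1 as well. Depth is unknown, and 4 samples a group limit what the permutation tests can reach.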
